A study of Mus musculus with 14 samples.

Results

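The interleukin-1 (IL-1) family genes measured in epididymal white adipose tissue (eWAT) were Il1b, Il33 and Il18 (ligands), Il1r1, Il1rap, Il1rl1 and Il18r1 (receptor chains), Il1rn and Il18bp (antagonists) and Casp1 (the processing protease). They were chosen by name as a pathway, but with earlier results of these data known. Each symbol matched 1 row, so that 10 of the 23282 genes of the count table are described. QuantSeq 3′-mRNA sequencing, which reads each transcript near its poly(A) tail, was performed on eWAT of 14 wild-type male C57BL/6J mice. Batch 1 held 4 control mice on the normal diet (replicates 1 to 4) and 5 mice on the Western diet (WD, replicates 1 to 5), and batch 2 held 5 further controls on the normal diet (replicates 5 to 9). All groups were kept on their diet for 20 weeks, and no WD mouse belonged to batch 2, so that diet and batch cannot be told apart when WD mice are set against the batch 2 controls. Total counts were 10278970 to 13712254 per library.

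IL-1 family cytokines are danger signals of barrier tissue and immune cells. IL-1β and IL-18 are made as inactive precursors and released after cleavage by caspase-1, which inflammasomes activate, whereas IL-33 is a nuclear protein set free from damaged cells. IL-1 receptor antagonist and IL-18 binding protein hold their cytokines in check. In adipose tissue IL-1β is known as a product of macrophages that impairs insulin signaling in adipocytes, and IL-33 is known to maintain regulatory T cells and innate lymphoid cells through its receptor ST2.

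Of these genes, only Il1rn and Casp1 had a false discovery rate (FDR) under 0.05 in any of the comparisons (edgeR). Both were higher in the WD mice than in the batch 2 controls (7.75-fold and 2.65-fold, n = 5 in each group). Neither had such an FDR within batch 1 or against all controls together. Their log2 fold changes were positive against each set of controls, as were those of Il18, Il1rl1, Il18bp and Il18r1. Il1b was positive by edgeR too, but its mean log2(CPM + 1) was lower in WD. The differences were -0.20 against the batch 1 controls, -0.33 against the batch 2 controls and -0.28 against all controls. Il18 and Il1rl1 were higher in every WD library than in every batch 1 control. Il18 had WD-like counts in the batch 2 controls, whereas for Il1rl1 only batch 2 control replicate 6 reached the WD range. Il33 and Il1r1 had overlapping levels in all groups, and Il1b, Il1rap, Il18bp and Il18r1 had counts near 0 in many libraries. Levels are given as CPM, the counts scaled to library totals with TMM factors over the 14 libraries, and groups were compared on log2(CPM + 1). In bulk tissue, fewer cells of a type and less RNA per cell cannot be told apart.

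The start regions of the 4 genes whose WD libraries lay above every control of a batch are shown because these genes are the ones the results turn on. The sequences are from RefSeq (GRCm38.p6) and run from 250 bases before the start site to 50 after it. Capitals mark letters of 5 searched motifs, on either strand, namely GAGGAA (the core bound by the macrophage factor PU.1), TGANTCA (AP-1), TTCNNNGAA (STAT factors), GAAANNGAA (interferon regulatory factors) and GGNNTTTCC (NF-κB). No match of 1 motif overlapped that of another in the regions shown.
Il1rn, chr2:24336610-24336909, plus strand: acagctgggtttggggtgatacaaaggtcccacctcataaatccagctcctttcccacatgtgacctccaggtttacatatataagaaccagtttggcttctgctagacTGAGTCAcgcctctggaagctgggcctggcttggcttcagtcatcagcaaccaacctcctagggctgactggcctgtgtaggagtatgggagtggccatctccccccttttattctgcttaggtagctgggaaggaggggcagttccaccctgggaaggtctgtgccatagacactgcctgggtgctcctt
Il1rn, downstream start, chr2:24345121-24345420, plus strand: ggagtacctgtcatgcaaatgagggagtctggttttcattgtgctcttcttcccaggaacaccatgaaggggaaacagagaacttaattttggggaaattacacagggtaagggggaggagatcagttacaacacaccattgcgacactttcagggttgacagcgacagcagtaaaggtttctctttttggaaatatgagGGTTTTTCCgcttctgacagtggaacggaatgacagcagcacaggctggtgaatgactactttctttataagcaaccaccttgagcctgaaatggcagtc
Casp1, chr9:5298267-5298566, plus strand: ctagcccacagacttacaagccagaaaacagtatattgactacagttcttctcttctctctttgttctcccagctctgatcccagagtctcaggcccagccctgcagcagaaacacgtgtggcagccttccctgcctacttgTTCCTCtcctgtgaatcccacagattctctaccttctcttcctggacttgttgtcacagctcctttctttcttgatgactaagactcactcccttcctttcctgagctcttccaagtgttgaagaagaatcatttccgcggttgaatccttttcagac
Il1rl1, chr1:40429320-40429619, plus strand: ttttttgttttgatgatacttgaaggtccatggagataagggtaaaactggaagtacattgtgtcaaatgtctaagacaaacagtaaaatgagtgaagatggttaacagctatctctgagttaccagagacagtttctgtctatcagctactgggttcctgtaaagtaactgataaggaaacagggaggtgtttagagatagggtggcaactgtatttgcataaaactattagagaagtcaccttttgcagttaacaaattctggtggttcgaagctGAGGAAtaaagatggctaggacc
Il18, chr9:50554450-50554749, plus strand: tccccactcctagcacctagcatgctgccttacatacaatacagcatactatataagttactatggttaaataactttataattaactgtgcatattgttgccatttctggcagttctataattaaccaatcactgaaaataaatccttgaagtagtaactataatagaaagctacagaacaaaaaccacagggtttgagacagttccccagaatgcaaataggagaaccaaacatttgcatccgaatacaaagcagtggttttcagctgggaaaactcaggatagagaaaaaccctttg

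The first Il1rn region held the AP-1 letters at bases -141 to -135, with the start site counted as 0, and the downstream one held the NF-κB letters at -50 to -42. Casp1 held the PU.1 core on the minus strand at -108 to -103, and Il1rl1 held it at 27 to 32. The Il18 region held no match, and its RefSeq start lies 10668 bases upstream of the start in the deposited table. Over 32851 start regions of the same length, 28.3% held the PU.1 core, 7.81% the AP-1 letters, 8.3% the STAT letters, 8.56% the interferon regulatory factor letters and 5.82% the NF-κB letters. All 10 members had an entry, with 17 start regions between them, of which 4 held the PU.1 core and 3 the NF-κB letters. Of those 3, 2 are overlapping windows of Il1rn with the same match and the other is a downstream start of Il1rl1. These matches are letters in a window and were not tested as binding sites.

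Among the antagonists, Il1rn (chr2:24336860-24351491) encodes the IL-1 receptor antagonist, which occupies the IL-1 receptor without signaling. Its counts were 334, 236, 292, 219 and 109 in the WD libraries and 0, 0, 42 and 189 in the batch 1 controls. In the batch 2 controls they were 53, 16, 20, 71 and 1. The WD libraries lay above all batch 2 controls and above 3 of the 4 batch 1 controls, and control replicate 4, at 189, reached above the lowest WD library. Mean CPM was 19.4 ± 6.48 (SD, n = 5) in WD, 4.30 ± 6.49 (SD, n = 4) in the batch 1 controls and 2.46 ± 2.11 (SD, n = 5) in the batch 2 controls. Il1rn was higher by a log2 fold change of 2.96 (SE 0.71) against the batch 2 controls (edgeR quasi-likelihood test, FDR = 0.0176). Without WD replicate 1 that FDR was 0.0508, and without batch 2 control replicate 7 it was 0.0526, both just past the threshold. Within batch 1 the log2 fold change was 2.16 (SE 1.46, edgeR FDR = 1.00), and the exact permutation p was 0.0159 (two-sided, unadjusted, 4 against 5 libraries). Without control replicate 4 that log2 fold change was 4.01 (edgeR FDR = 0.332).

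Casp1 (chr9:5298517-5307281) encodes caspase-1, which cleaves the precursors of IL-1β and IL-18. Its counts were 712, 233, 666, 455 and 558 in the WD libraries and 1, 181, 58 and 304 in the batch 1 controls. In the batch 2 controls they were 201, 151, 334, 189 and 94. On the TMM scale every WD library lay above every batch 1 control, which was not so with library totals alone (WD replicate 2 and control replicate 4 then overlapped), and 4 of 5 lay above every batch 2 control, with WD replicate 2 and batch 2 control replicate 7 at nearly the same level. Mean CPM was 41.4 ± 10.8 (SD, n = 5) in WD, 10.5 ± 9.92 (SD, n = 4) in the batch 1 controls and 15.5 ± 5.74 (SD, n = 5) in the batch 2 controls. Casp1 had a log2 fold change of 1.40 (SE 0.32) against the batch 2 controls (edgeR FDR = 0.0126), and the FDR stayed between 0.000511 and 0.0438 over the 14 alternatives. In batch 1 it was 1.97 (SE 0.92, edgeR FDR = 0.976), with an exact permutation p of 0.00794, the smallest that 4 against 5 libraries allow.

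**Figure D1:**
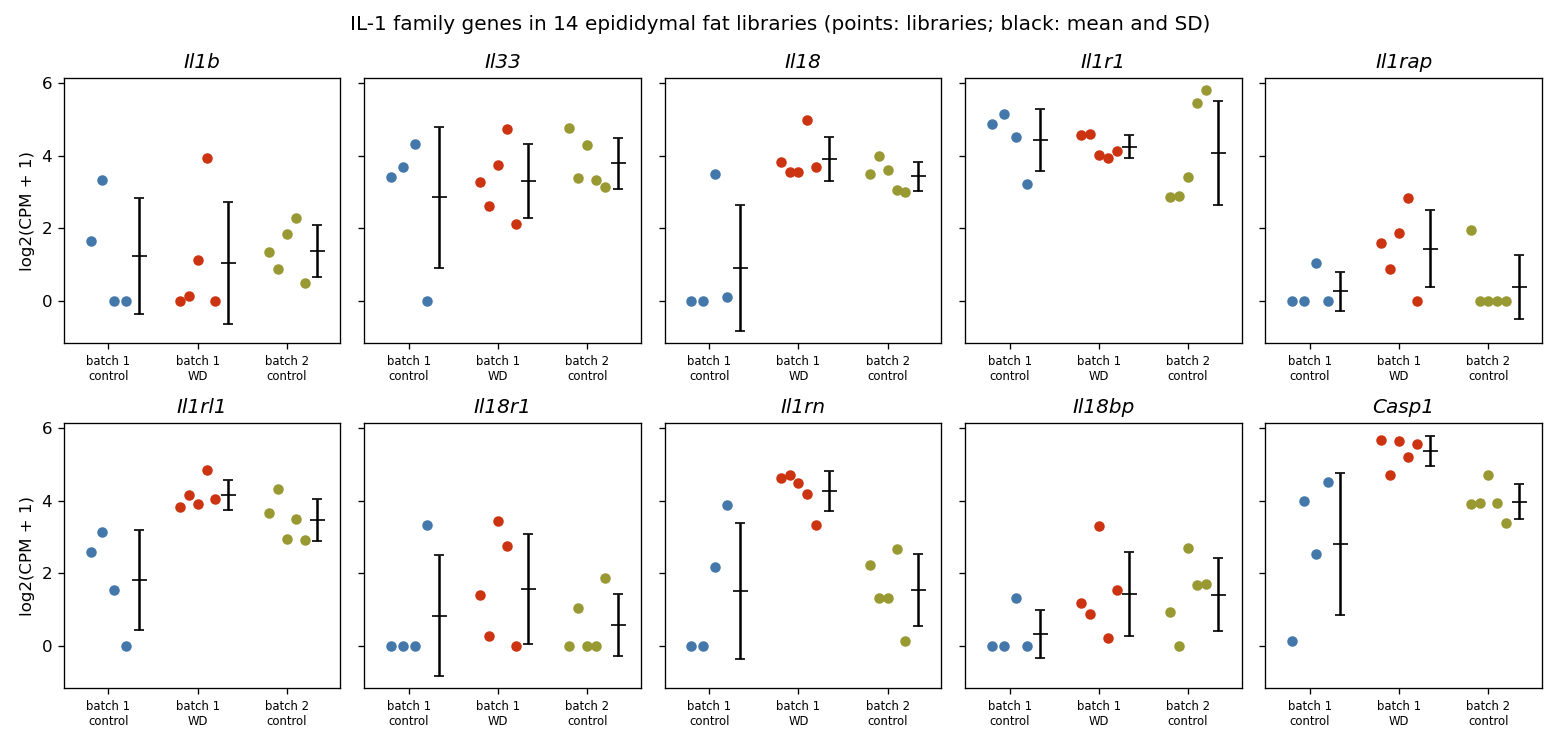
log2(CPM + 1) of the 10 genes (vertical axis) in each library (points) of the 3 groups, with the group mean and SD in black. Casp1, Il18 and Il1rl1 in WD lie above all batch 1 controls, and Il1rn in WD lies above all batch 2 controls.

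Il18 (chr9:50565368-50581837) encodes a cytokine that acts on T and natural killer cells. Its counts were 187, 100, 144, 388 and 144 in the WD libraries and 0, 0, 125 and 1 in the batch 1 controls. In the batch 2 controls they were 146, 157, 149, 96 and 70. Thus 3 of the 4 batch 1 controls were at or near 0, while the remaining one and all batch 2 controls had counts like those of the WD libraries. The low ones included replicate 1, with 45422 CPM of epididymis genes, and replicate 4, with the fewest genes with a count of any library (7999). Every WD library lay above every batch 1 control on the TMM scale (exact permutation p = 0.00794, two-sided), by a narrow margin, 10.7 CPM in WD replicate 3 against 10.4 CPM in control replicate 3. With library totals alone as the scale, Il18 and Casp1 overlapped and Il1rl1 did not. For Il18 the log2 fold change was 2.55 (SE 1.69, edgeR FDR = 1.00) in batch 1 and 0.60 (SE 0.45, edgeR FDR = 0.584) against the batch 2 controls. Without control replicate 3, which left batch 1 controls with at most 1 count, the fitted batch 1 value was 8.68 (edgeR FDR = 0.238), a number that depends on the prior count. The batch 2 controls lay higher than the batch 1 controls themselves by 1.94 (SE 1.67, edgeR FDR = 0.916, exact permutation p = 0.0317), or by 8.09 without control replicate 3.

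Il33 (chr19:29925114-29960715) encodes the ligand of ST2. Its counts were 123, 48, 169, 328 and 40 in WD, 89, 144, 229 and 0 in the batch 1 controls, and 373, 100, 252, 119 and 78 in the batch 2 controls. These groups overlapped throughout, with the highest WD library and the highest control of each batch within 19.1 to 26.3 CPM. The log2 fold change was 0.12 (SE 1.26) in batch 1 and -0.37 (SE 0.57) against the batch 2 controls, with edgeR FDRs of 1.00 and 0.848. Mean CPM was 11.1 ± 9.01 (SD, n = 5) in WD, 10.2 ± 7.89 (SD, n = 4) in batch 1 controls and 14.3 ± 8.03 (SD, n = 5) in batch 2 controls.

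Il1b (chr2:129364580-129371120) encodes IL-1β. Its counts were 0, 1, 16, 180 and 0 in WD, 20, 108, 0 and 0 in the batch 1 controls and 22, 9, 35, 51 and 4 in the batch 2 controls. One WD library, replicate 4, held 180 of the WD counts, and 3 of the other 4 had 1 count or none. For Il1b, the log2 fold change of 0.15 (SE 2.30, edgeR FDR = 1.00) in batch 1 had an error far above its size, and no difference was detected. Counts spread from 0 to 180 between the WD libraries and from 0 to 108 between the batch 1 controls. By library totals alone, without TMM factors, 3 counts correspond to 0.219 to 0.292 CPM. Against the batch 2 controls it was 0.74 (SE 1.57, edgeR FDR = 0.905), and without WD replicate 4 it was -2.51 (edgeR FDR = 0.532).

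Among the receptor chains, Il1rl1 (chr1:40429570-40465414), which encodes ST2, differed most clearly within batch 1. Its counts were 188, 157, 190, 353 and 187 in WD and 46, 94, 23 and 0 in the batch 1 controls. In the batch 2 controls they were 166, 201, 89, 135 and 66. All WD libraries exceeded all batch 1 controls, also with library totals as the scale, and overlapped the batch 2 controls through replicate 6. Mean CPM was 17.5 ± 5.97 (SD, n = 5) in WD, 3.68 ± 3.45 (SD, n = 4) in the batch 1 controls and 10.9 ± 5.14 (SD, n = 5) in the batch 2 controls. Il1rl1 had a log2 fold change of 2.24 (SE 1.21, edgeR FDR = 1.00, exact permutation p = 0.00794) in batch 1 and 0.68 (SE 0.43, edgeR FDR = 0.479, exact permutation p = 0.0794) against the batch 2 controls. The batch 2 controls exceeded the batch 1 controls by 1.55 (SE 1.23, edgeR FDR = 0.897, exact permutation p = 0.0317).

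Il1r1 (chr1:40225080-40316177), the signaling receptor of IL-1, had counts of 321, 217, 208, 181 and 197 in WD, 262, 411, 261 and 116 in the batch 1 controls and 89, 67, 128, 559 and 549 in the batch 2 controls. The WD libraries fell inside the range of each control group, and the batch 2 controls spread the widest, with replicates 8 and 9 apart from the other 3. The log2 fold change was -0.34 (SE 0.59, edgeR FDR = 1.00) in batch 1 and -0.39 (SE 0.56, edgeR FDR = 0.832) against the batch 2 controls. Il1rap (chr16:26581705-26725147), the co-receptor shared by the receptors of IL-1 and IL-33, had counts of 29, 8, 36, 77 and 0 in WD. In the batch 1 controls only replicate 3 had counts (13), and in the batch 2 controls only replicate 5 did (41). Il1rap passed the filter on low counts in batch 1, largely through its WD libraries, at a log2 fold change of 3.05 (SE 2.23, edgeR FDR = 1.00), and did not pass it against the batch 2 controls. Without control replicate 3 the batch 1 value was 7.82 (edgeR FDR = 0.588), with all remaining controls at 0. Il18r1 (chr1:40465552-40500854), the ligand-binding receptor chain of IL-18, had counts of 23, 2, 134, 72 and 0 in WD, 126 in control replicate 4 with 0 in the other 3 batch 1 controls, and 11 and 27 in 2 of the 5 batch 2 controls. The groups overlapped, with log2 fold changes of 0.61 (SE 2.25, edgeR FDR = 1.00) in batch 1 and 2.20 (SE 1.78, edgeR FDR = 0.62) against the batch 2 controls. The batch 1 value was 8.37 (edgeR FDR = 0.37) without control replicate 4, the only batch 1 control with counts.

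Il18bp (chr7:102015077-102018155) encodes the secreted inhibitor of IL-18. Its counts were 18, 8, 120, 2 and 23 in WD, 0, 0, 18 and 0 in the batch 1 controls and 13, 0, 74, 29 and 23 in the batch 2 controls. Only WD replicate 3 lay above all controls, and the lowest WD library had 2 counts. The Il18bp log2 fold change was 2.76 (SE 2.15, edgeR FDR = 1.00) in batch 1 and 0.23 (SE 1.35, edgeR FDR = 0.972) against the batch 2 controls. Without control replicate 3, the only batch 1 control with counts, the batch 1 value was 7.97 (edgeR FDR = 0.558).

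**Figure D2:**
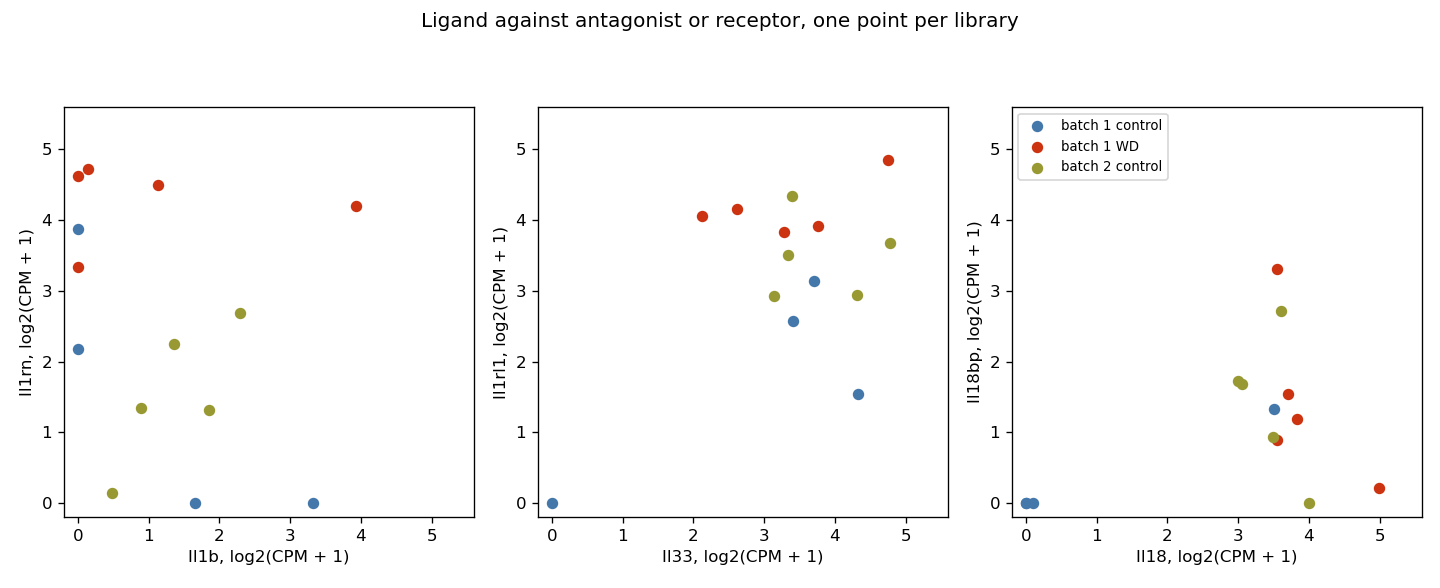
log2(CPM + 1) of a ligand (horizontal axis) against its antagonist or receptor (vertical axis), with 1 point per library and colors for the 3 groups. Il1rn in WD sat between 3.33 and 4.72 whether Il1b was 0 or 3.93, and control replicate 4 of batch 1 sat at 0 for both Il33 and Il1rl1.

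Counted over the family, 0 of the 10 members had an FDR under 0.05 in batch 1 (edgeR), where 0 of the 12157 genes tested (0%) did, 628 genes had an unadjusted p under 0.05, and DESeq2 called 238 genes and 0 members. No member had an unadjusted p under 0.05 in that edgeR test, the lowest being 0.0519 for Casp1. In batch 1, 3 members had every WD library above every control (Casp1, Il18 and Il1rl1), against a background of 3.03% of the genes tested. An exact permutation p under 0.05 was reached by 4 members (also Il1rn), against 9.87% of all genes. With library totals as the scale the first of these counts was 1, and without control replicate 4 it was 4, now with Il1rn. Against the batch 2 controls, 9 members passed the filter on low counts and 2 of them, Il1rn and Casp1, had an FDR under 0.05 and were higher, against 3.93% of the genes tested. That count was 2 with DESeq2 as well, and 1 without WD replicate 1 or batch 2 control replicate 7. Il1rn alone had no overlap with the batch 2 controls, against a background of 4.99%, and Il1rn and Casp1 had an exact permutation p under 0.05, against 20.6%.

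Against all 9 controls, 0 of the 10 members had an FDR under 0.05 (edgeR), against 0.53% of the genes tested, and DESeq2 called 0 members. At an unadjusted p under 0.05 there were 2, Il1rn with a log2 fold change of 2.53 (SE 1.04, edgeR FDR = 0.504) and Casp1 with 1.62 (SE 0.60, edgeR FDR = 0.390). Of the 12653 genes tested, 978 had such an unadjusted edgeR p. Exact permutation p-values were 0.0035 for Il1rn, 0.00599 for Casp1, 0.0275 for Il1rl1 and 0.045 for Il18, so that 4 members had p under 0.05 against a background of 11.5%. With a pseudocount of 0.1 CPM the value for Il1rl1 was 0.0614. No member had every WD library above all 9 controls, against 1.13% of the genes tested. This count was 1 without batch 1 control replicate 4 (Il1rn), batch 2 control replicate 6 (Il1rl1), batch 2 control replicate 7 (Casp1), WD replicate 2 (Casp1) or WD replicate 5 (Il1rn). Batch 1 control replicates 1 and 4 stood apart from the others, the first with 45422 CPM of epididymis genes against at most 13.3 CPM elsewhere and the second with 7999 genes with a count against 10903 or more elsewhere. Without both, an alternative chosen after seeing the data, Il1rn (log2 fold change 3.08, edgeR FDR = 0.0319) and Casp1 (1.56, edgeR FDR = 0.00995) passed against the remaining 7 controls, and 0 members passed in batch 1.

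**Figure D3:**
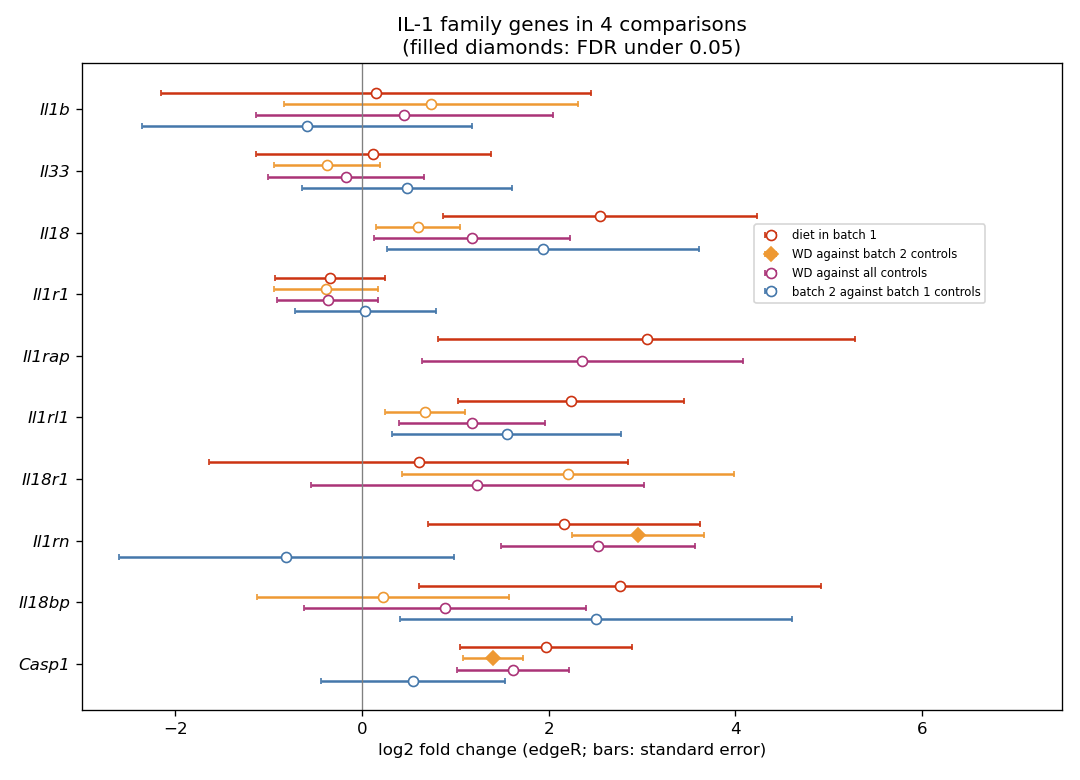
log2 fold change from edgeR with its standard error (horizontal axis) for each gene (rows) in 4 comparisons (colors), with filled diamonds for an FDR under 0.05. The filled diamonds are Il1rn (2.96) and Casp1 (1.40) against the batch 2 controls, and genes that did not pass the filter on low counts have no point.

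The batch 2 controls were set against the batch 1 controls to see how far controls differed without the diet. In this comparison 0 of the 8 members that passed the filter had an FDR under 0.05 (edgeR) or an unadjusted p under 0.05, and 0 of the 12106 genes tested (0%) had such an FDR, with 895 genes at an unadjusted p under 0.05 and 222 calls, 0 of them members, by DESeq2. Il18 and Il1rl1 had an exact permutation p under 0.05, against 13.8% of all genes, and both were higher in batch 2. For Il1rn and Casp1 the log2 fold changes were -0.81 (SE 1.79) and 0.55 (SE 0.99), with edgeR FDRs of 0.985 and 0.982.

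Macrophage markers moved with the group in the same libraries. The summed level of 9 markers was 1274 to 1857 CPM in WD, 178 to 1386 CPM in the batch 1 controls and 219 to 533 CPM in the batch 2 controls, and all 9 markers had counts in every library. Control replicate 4, which had the most Il1rn and Casp1 of its group, also had the highest macrophage sum of the 9 controls, 1386 CPM, with 556 CPM in the next control. Of the 9 markers, 7 had an FDR under 0.05 and were higher in WD than in the batch 2 controls (edgeR), and 0 did in batch 1, where 5 had an unadjusted p under 0.05 and DESeq2 called 1. Across the 14 libraries, Il1rn correlated with the macrophage sum at r = 0.89 and Casp1 at r = 0.76 on the log2 scale, as a description of libraries that share a diet split. Over the 9 controls alone the values were 0.72 and 0.56. Markers of other cells moved with both genes too. The summed level of 6 stromal progenitor markers was 938 to 1516 CPM in WD, 309 to 1679 CPM in the batch 1 controls and 681 to 1041 CPM in the batch 2 controls. Its correlation was 0.84 with Il1rn and 0.77 with Casp1 over 14 libraries, and 0.87 and 0.71 over the 9 controls. The collagen genes Col1a1 (log2 fold change 1.47, SE 0.27, edgeR FDR = 0.00305) and Col3a1 (1.26, SE 0.25, edgeR FDR = 0.00461) of that list were higher in WD than in the batch 2 controls. The list was mixed there, with 4 of the 6 markers positive and with Pi16 (-0.76) and Dpp4 (-0.87) negative, neither at an FDR under 0.05. In batch 1, 0 of the 6 had an FDR under 0.05 (edgeR), and their median log2 fold change was 0.23. Over the controls, Casp1 also correlated with adipocyte markers at 0.84 and with epididymis markers at -0.94, the latter being almost entirely in control replicate 1, where Casp1 had 1 count. That library was also the lowest control for the adipocyte (6669 CPM), macrophage (178 CPM) and stromal progenitor (309 CPM) sums. Correlations over the controls without it were not computed. The part of macrophage, stromal and other cells in the Il1rn and Casp1 results was not tested.

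**Figure D4:**
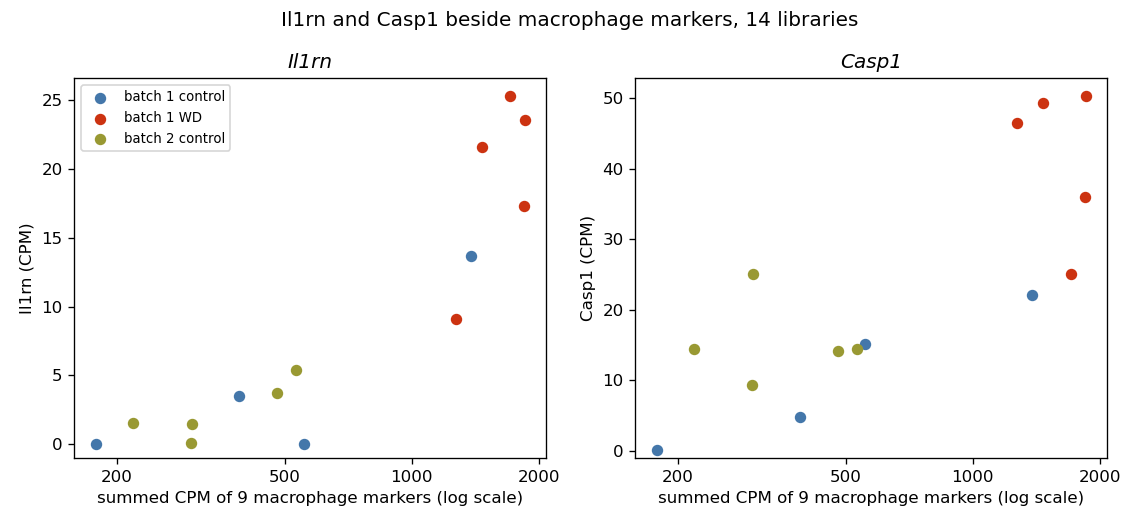
CPM of Il1rn (left) and Casp1 (right) against the summed CPM of 9 macrophage markers on a log axis, with 1 point per library. The 5 WD libraries and batch 1 control replicate 4 lie at 1274 CPM of macrophage markers or above, and the other 8 controls at 556 or below.

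Il1rl1 and Il33 were listed at 0 in control replicate 4, which was also at 0 for all 8 mast cell markers. That library had the fewest genes with a count, 7999 against 10903 or more elsewhere. The mast cell sum was 18.2 to 134 CPM in WD, 0 to 57.3 CPM in the batch 1 controls and 7.09 to 47.1 CPM in the batch 2 controls, and the defining gene Ms4a2 was at 0 in all controls and all but 1 of the WD libraries. The correlation of Il1rl1 with this sum was 0.63 over 14 libraries, and its part in the result was not tested. The genes whose levels were most like those of a member over the 14 libraries, among 11219 genes, were Laptm5 (r = 0.97), Dock2 (0.96) and Ubd (0.94) for Il1rn. Laptm5 and Dock2 are genes of blood-derived cells, and Ubd encodes a ubiquitin-like protein. For Casp1 the first in that order were Fgf13 (0.95) and Lpgat1 (0.93), and for Il1rl1 they were Il16 (0.92), Ankrd50 (0.90) and Tarbp2 (0.90). For Il18 they were Gab3 (0.94), Mov10 (0.94) and Rtp4 (0.92), and for Il33 they were Ogfod1 (0.94), Appbp2 (0.93) and Acss1 (0.92). Points of such correlations share a library, its depth and its group.

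Of the other genes of the pathway, the inflammasome list had 13 genes, of which 9 passed the filter against the batch 2 controls and 1, Pycard, had an FDR under 0.05 (edgeR; DESeq2 called Pycard and Naip2). The median log2 fold change of the tested genes was 0.40 in batch 1 and 0.59 against the batch 2 controls, beside 0.03 and -0.003 for all genes. Some of them, such as Naip5 and Gsdmd in batch 1, passed the filter largely through their WD libraries. The medians therefore do not describe the whole list, and they were not tested. Pycard encodes ASC, the adaptor that joins inflammasome sensors to caspase-1. Pycard averaged 29.3 ± 10.1 CPM in WD (SD, n = 5), 7.02 ± 5.26 CPM in batch 2 controls (SD, n = 5) and 23.99 ± 26.9 CPM in batch 1 controls (SD, n = 4). Against the batch 2 controls this was a log2 difference of 2.05 (SE 0.52, edgeR FDR = 0.0237). In batch 1 it was 0.29 (SE 0.74, edgeR FDR = 1.00), with a batch 1 control at 872 counts. Nlrp3, the best known sensor upstream of caspase-1, was listed at 0 in all 14 libraries, as was Il1a, which encodes IL-1α. By library totals alone, without TMM factors, 3 counts would be at most 0.292 CPM in a library. Naip5, a sensor of bacterial flagellin, was singled out after its values were seen, with 5 to 53 counts in WD, 0 in the 4 batch 1 controls and 0 to 16 in the batch 2 controls, and DESeq2 called it in batch 1 where edgeR did not (FDR = 0.523). Gsdmd, the pore-forming substrate of caspase-1, had up to 197 counts in WD, with log2 fold changes of 2.50 (SE 2.05) in batch 1 and 0.59 (SE 0.84) against the batch 2 controls, and FDRs of 1.00 and 0.830 (edgeR).

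Of the other ligands and receptors, 8 of 12 listed genes were in the table and 2 passed the filter in batch 1, with 0 at an FDR under 0.05 in any comparison by edgeR or DESeq2 and 0 at an unadjusted edgeR p under 0.05. The decoy receptor Il1r2 had at most 68 counts in a library, the IL-18 receptor chain Il18rap at most 65 and the negative regulator Sigirr at most 156. Among 16 receptor signaling genes, which all passed the filter, 0 had an FDR under 0.05 in any comparison by edgeR, and 9 had a positive log2 fold change in batch 1 (median 0.06, beside 0.03 for all genes). At an unadjusted p under 0.05 there was 1, Irak4 against the batch 2 controls, which DESeq2 called. Myd88, the adaptor of IL-1 family receptors, differed by -0.24 (SE 0.68) in batch 1 and by -0.11 (SE 0.44) against the batch 2 controls, with edgeR FDRs of 1.00 and 0.954. Irak4 encodes the kinase recruited by that adaptor and was likewise singled out after its values were seen. It had 158 to 305 counts in WD, 0 to 121 in the batch 1 controls and 95 to 172 in the batch 2 controls, and its WD libraries lay above all 9 controls on the CPM scale, with a log2 fold change of 1.43 (SE 0.73, edgeR FDR = 0.719) against them.

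Of 13 response genes of IL-1 and IL-18, Saa3, an acute-phase protein gene of fat and macrophages, had an FDR under 0.05 and was higher in WD than in the batch 2 controls (edgeR). Of the 13, 6 passed the filter there and 7 were not tested. Of those 6, 4 had a positive log2 fold change (median 0.52). In batch 1, 2 of the 5 tested genes were positive (median -0.60), and against all controls 2 of 6 were (median -0.12). Ccl2, a chemokine gene, had an unadjusted p of 0.0262 (edgeR FDR = 0.194), and DESeq2 called Saa3 against the batch 2 controls and against all controls. Saa3 averaged 130.4 ± 38.2 CPM in WD (SD, n = 5), 14.003 ± 15.4 CPM in batch 2 controls (SD, n = 5) and 33.1 ± 53.1 CPM in batch 1 controls (SD, n = 4). The log2 fold change was 3.20 (SE 0.52, edgeR FDR = 0.00118) against the batch 2 controls and 1.98 (SE 0.89, edgeR FDR = 0.950) in batch 1. The response genes Il6, Ptgs2 and Ifng were listed at 0 in all libraries. Of 11 genes of innate lymphoid cells and regulatory T cells downstream of IL-33, 5 or 6 passed the filter in each comparison, of which 0 had an FDR under 0.05 by edgeR or an unadjusted edgeR p under 0.05, and DESeq2 called 0. The others were not tested by edgeR, and Il5, Il13 and Il10 were listed at 0 throughout, while Foxp3 had 49 to 267 counts in WD, 23 to 418 in the batch 1 controls and 85 to 145 in the batch 2 controls. The Foxp3 ranges overlapped in all groups.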

How the data were processed

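QuantSeq 3′-mRNA sequencing was performed by the authors on eWAT RNA of 14 mice, with groups, batches and replicate numbers as given by the sample labels. Reads were aligned with Bowtie2 and counted with bedtools, and the authors deposited raw counts per gene together with log2 values after TMM and CPM scaling in edgeR, with 1 added. The submitters' processing notes name the build mm10. The strand used for counting is not given in the sources used here, and Il1b, Il1rap, Il18 and Il18bp overlap or adjoin genes on the opposite strand (Il1r1 overlaps Gm38070 on the same strand). The methods state that multiple alignments were counted.

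The deposited counts were tested with edgeR 4.0.16 (limma 3.58.1, R 4.3.3), by the quasi-likelihood test with TMM factors, the filterByExpr filter, no covariate and Benjamini-Hochberg adjustment over all genes tested. log2 values were recomputed as log2(CPM + 1), within 0.0507 of the deposited log2 values, and compared by two-sided exact permutation tests, which were not adjusted. Alternatives were upper-quartile factors, library totals, no filter, DESeq2 1.42.0, a replicate block, a batch covariate, a pseudocount of 0.1 CPM and each library left out. Levels and figures used Python 3.11.15, numpy 2.4.6, pandas 2.3.3 and matplotlib 3.10.9, and permutation tests were checked with scipy 1.17.1. The pipeline was tested on simulated data. Single genes were named by a rule: all members, genes of fixed pathway lists with an FDR under 0.05, and Il1a, Il1r2, Il18rap, Sigirr, Nlrp3, Pycard, Gsdmd and Myd88. Other single genes (Naip5, Naip2, Irak4, Ccl2, Il6, Ptgs2, Ifng, Il5, Il13, Il10, Foxp3, the marker genes Ms4a2, Col1a1, Col3a1, Pi16 and Dpp4) were named after their values were seen. Members and lists were chosen with earlier results of these data known. p-values measure the spread between these mice. Statements on depth concern counting error alone. A further gene of the likeness search is not reported here.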

Additional observations from a re-analysis of the deposited data

Results flagged for a closer look

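In groups of 4 or 5 libraries, the library farthest from the rest was compared with the group's range by Dixon's criterion, for each member in each of 3 groups. Of these 30 sets, 7 had a library standing apart. The criterion's rate of about 1 in 20, or 1.5 sets, holds for independent, normally distributed values. Many values here are tied at 0 and all sets come from the same 14 libraries, so 7 cannot be read as an excess over that rate. On the log2(CPM + 1) scale they were Il1b in WD replicate 4 (3.93, 180 counts), Il18 in WD replicate 4 (4.99, 388 counts) and Il18 in batch 1 control replicate 3 (3.51, 125 counts). The others were Il1rap in batch 1 control replicate 3 (1.06, 13 counts) and in batch 2 control replicate 5 (1.96, 41 counts), Il18bp in batch 1 control replicate 3 (1.32, 18 counts) and Il18r1 in batch 1 control replicate 4 (3.34, 126 counts). In these last 4 sets, the rest of the group was at 0, so that any count at all would stand apart. Leaving out WD replicate 4 moved the Il1b log2 fold change against the batch 2 controls from 0.74 to -2.51. The causes were not tested.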

How the results depend on the processing

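No WD library belongs to batch 2, and several members had few counts, so their standard errors were large. With DESeq2, genes at an FDR under 0.05 numbered 238 in batch 1, 1280 against the batch 2 controls, 293 against all controls and 222 between the control batches. Without batch 1 controls 1 and 4 (chosen after seeing the data) they numbered 108 in batch 1, 619 against the other 7 controls, with 2 members, and 28 between the control batches, and with batch as a covariate over 14 libraries there was 1. With library totals, 1 member had no overlap in batch 1. The cause of these changes was not tested. With each library left out, genes at an FDR under 0.05 ranged from 0 to 48 in batch 1, 565 to 977 against the batch 2 controls, 28 to 289 against all controls and 0 to 2 between control batches. Members ranged from 1 to 2 against the batch 2 controls, and members without overlap from 3 to 4 in batch 1 and 0 to 1 against all controls.

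Direction turned for members whose change was small against its error. Without controls 1 and 4 the log2 fold changes were -0.54 (Il1b) and -0.48 (Il33) in batch 1, and 0.50 (Il1rn), -0.23 (Il1r1) and -0.11 (Il33) between control batches, where DESeq2 gave -0.067 for Il1r1. With each library left out, the ranges that crossed 0 were, for Il1b, -0.27 to 2.09 in batch 1, -2.51 to 1.19 against the batch 2 controls, -2.80 to 1.12 against all controls and -1.04 to 1.41 between control batches. For Il33 they were -0.46 to 0.60 in batch 1 and -0.77 to 0.065 against all controls, and for Il18bp -1.07 to 0.92 against the batch 2 controls and -0.41 to 1.57 against all controls. For Il1r1 they were -0.63 to 0.17 against the batch 2 controls and -0.52 to 0.31 between control batches, and for Il1rn -1.33 to 1.08 between control batches. In the comparisons with WD, Casp1 and Il1rn kept a positive log2 fold change under all alternatives. This did not set them apart, since Il18, Il1rl1 and Il18r1 also stayed positive there with each library left out. Il1rap did so where it was tested.

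Replicate numbers 1 to 4 are shared by the batch 1 groups. Deviations of same-numbered libraries correlated at -0.021 to 0.081, inside the range of the other pairs (-0.092 to 0.129). So few pairs cannot settle whether these libraries share more than a number. A replicate block gave 0 genes at an FDR under 0.05 with no call changed. Under the block the log2 fold change was -0.050 for Il1b, 5.19 for Il1rn, 5.89 for Il1rap, 7.52 for Il18, 4.55 for Il18bp and 5.24 for Il18r1, each over 1.5 times from the value without it.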
